A study of Homo sapiens with 3 samples.

Results

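The promoters of 10 calcium handling genes of the heart, PLN, ATP2A2, RYR2, CASQ2, TRDN, JPH2, SLC8A1, CACNA1C, CACNB2 and SLN, were followed through the promoter capture Hi-C calls of cardiomyocytes made from human embryonic stem cells, termed hESC-CMs. A promoter fragment was a HindIII fragment listed first in a call that holds an annotated transcript start of one of these genes, and 11 of the 19075 promoter fragments in the calls did so, 2 of them for CACNB2. All contacts of these fragments were taken, whichever fragment of the pair was listed first, which gave 193 of the 219827 contacts of all promoter fragments. The partner of a promoter in a contact is called here a promoter-interacting region (PIR).

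Promoter capture Hi-C ligates DNA that lies close together in crosslinked nuclei, after cutting with the restriction enzyme HindIII, and enriches the products that carry a promoter. The 3 biological replicates were all hESC-CMs without further treatment, differentiated with a commercial kit from the single embryonic stem cell line WA09 (H9) and enriched for cardiomyocytes in lactate medium without glucose. They were the 1 condition, so values are given with the spread between replicates and no groups were compared. Each contact carries a CHiCAGO score, which is higher the more the read count of a fragment pair exceeds a background that depends on distance and noise. The lowest score listed was 5, so a fragment pair without a call may still have been in weaker contact. The cells were pooled, and contacts in more cells cannot be told apart from closer contact in each cell. The submitters checked the purity of the cells with the cardiac markers MYH7 and TNNT2, and as the files hold no RNA levels this was not checked again.

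In each heartbeat, calcium enters through the L-type channel, whose pore is encoded by CACNA1C and whose beta subunit by CACNB2, and opens the ryanodine receptor RYR2 on the sarcoplasmic reticulum. CASQ2 (calsequestrin) stores calcium there, TRDN (triadin) links it to RYR2, and JPH2 (junctophilin) holds the reticulum next to the surface membrane. Calcium is pumped back by SERCA2, the product of ATP2A2, under the restraint of the small proteins PLN (phospholamban) and SLN (sarcolipin), and leaves the cell through the sodium-calcium exchanger SLC8A1.

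The genes differed widely in how many contacts their promoters had. RYR2 alone held 113 of the 193 contacts (58.5%). CASQ2 had 16, PLN 14, JPH2 13, CACNB2 20 over both of its promoter fragments, ATP2A2 7 and TRDN 5. CACNA1C had 3, and SLC8A1 and SLN had 1 each, which was the case for 9.62% of all promoter fragments. Among the 19075 promoter fragments in the calls the median was 6 contacts, against 9 for the 11 studied here. In order of contacts in the union, RYR2 ranked 59 among the 19075 promoter fragments, CASQ2 ranked 3837, PLN ranked 4552 and SLN and SLC8A1 shared rank 17241.

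**Figure D1:**
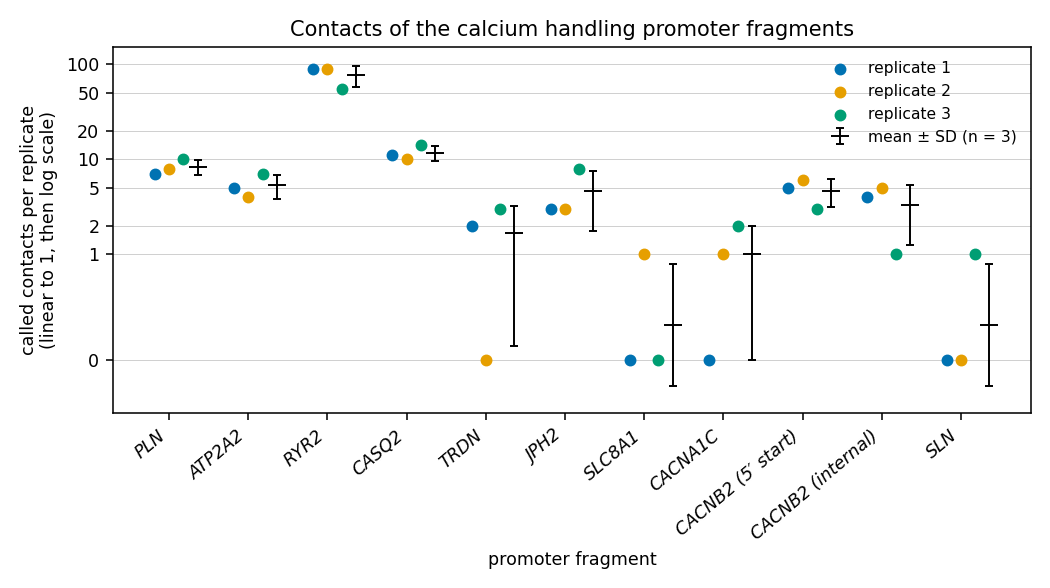
Called contacts of each promoter fragment (horizontal axis) in each of the 3 replicates (coloured points), with the mean and SD in black, on a vertical axis that is linear up to 1 and logarithmic above. RYR2, with 88, 88 and 55 contacts, lies above all other fragments, and SLN and SLC8A1 were called in 1 replicate each.

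All 3 replicates called 60 of the 193 contacts (31.1%), against 24.4% of the contacts of all promoter fragments. The 95% Wilson interval, 25.0 to 37.9%, covers counting error only and treats contacts as independent. Adjacent fragments of the same promoter are not independent, so the interval does not test the difference from 24.4%. Because 43 of the 60 belonged to RYR2, the share without RYR2 was 21.3%, or 17 of 80. The other contacts in all replicates were 9 of CASQ2, 4 of PLN, 3 of ATP2A2 and 1 of CACNB2. Of the 11 promoter fragments, 5 had at least 1 such contact, against 51.9% of all promoter fragments. TRDN, JPH2, SLC8A1, CACNA1C, SLN and the second CACNB2 fragment had none. The contacts in all replicates had a median of their mean scores of 7.53, against 5.65 for the 91 contacts called in 1 replicate.

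The calcium handling contacts, most of them of RYR2, were mostly of medium range. The median distance between fragment midpoints was 377 kb over the 191 contacts on the same chromosome, against 691 kb for all promoter fragments, and it was 638 kb without RYR2. Only 13 contacts (6.74%) spanned more than 1 Mb, against 39.6% of all contacts, and none of these 13 was called in all 3 replicates. Without RYR2 the share over 1 Mb was 15%. Among contacts called in all 3 replicates, the median distance was 345 kb, against 384 kb for all promoter fragments, and 624 kb without RYR2. Within 1 Mb, 60 of the 178 contacts (33.7%) were called in all replicates, against 34.2% for all promoter fragments. Without RYR2 this was 17 of 66 (25.8%). A further 2 contacts (1.04%), 1 of PLN and 1 of JPH2, joined another chromosome, against 3.65% of all contacts, and each was called in replicate 2 alone, at scores of 5.27 and 5.01.

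Where the interacting fragments lay differed from gene to gene. For RYR2 and JPH2 most contacts fell inside the gene itself, with 76 of 113 and 8 of 13. For PLN, ATP2A2, CACNA1C and CACNB2 most fell inside another protein-coding gene, and for CASQ2 13 of 16 fell between protein-coding genes. Over all promoter fragments that hold starts of 1 protein-coding gene, 5.41% of same-chromosome contacts lay inside that gene, against 44.5% here and 11.5% without RYR2. The latter were 8 contacts of JPH2 and 1 of TRDN, none of them called in all 3 replicates. Gene length was not taken into account. Every contact of ATP2A2, CACNA1C, CACNB2 and SLC8A1 lay upstream of its promoter, 31 in all, as did 11 of the 13 same-chromosome contacts of PLN. Over the 10 genes together 47.1% of same-chromosome contacts lay upstream, against 49.0% for all promoter fragments that hold starts of 1 protein-coding gene. Without RYR2 the upstream share was 67.9%, or 53 of 78. By contrast, 76 of the 113 contacts of RYR2 and 11 of the 16 of CASQ2 lay downstream.

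**Figure D2:**
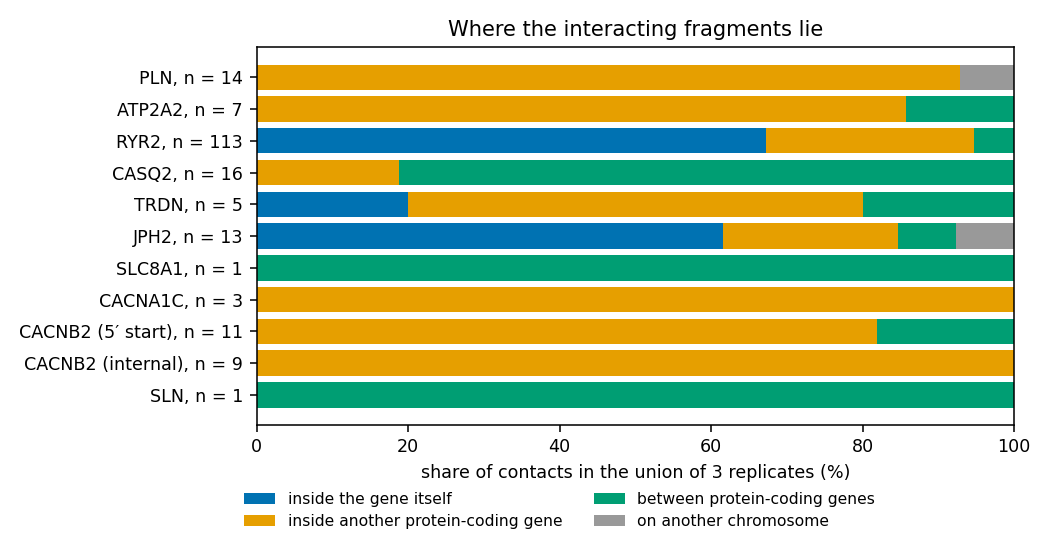
Share of the contacts of each promoter fragment (horizontal axis, in percent of its contacts in the union of 3 replicates, n beside each name) that lay inside the gene itself, inside another protein-coding gene, between protein-coding genes or on another chromosome. Contacts inside the gene itself made up 76 of 113 for RYR2 and 8 of 13 for JPH2, while those of CASQ2 lay mostly between genes.

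RYR2, which encodes the calcium release channel of the sarcoplasmic reticulum, lies on chromosome 1 of GRCh37 from 237205484 to 237997288 on the plus strand, and its promoter fragment spans 237202483 to 237207268. This fragment holds 4 of the 8 annotated starts, the canonical start among them. It had 88 contacts in replicate 1, 88 in replicate 2 and 55 in replicate 3, a mean of 77.0 ± 19.1 (SD, n = 3). Replicate 3 was thus the low one, although over all promoter fragments it had 122122 contacts, between the 120914 of replicate 2 and the 123791 of replicate 1. The ratio of replicate 3 to the mean of the other replicates was 0.625 for RYR2, and 3 of the 141 promoter fragments with a mean of at least 50 contacts, RYR2 included, had a ratio that low. Among the 43 contacts called in all 3 replicates, the median score was 7.71 in replicate 1, 7.58 in replicate 2 and 6.20 in replicate 3, and replicate 3 was the lowest in 32 of them. Among the neighbouring promoters, MTR had 8, 6 and 6 contacts, LGALS8 had 14, 11 and 12 and ACTN2 had 1, 1 and 2, so their replicate 3 was not below both others. An unnamed promoter fragment from 238050722 to 238054218, the neighbour nearest to RYR2 in number of contacts, had 44, 37 and 36, with replicate 3 the lowest by 1 contact.

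The contacts of RYR2 inside its own gene began 107 kb from the promoter and ended at 539 kb, in a gene 792 kb long. They took 76 of the 242 other HindIII fragments of the gene (31.4%), and 33 of the 76 were called in all 3 replicates. An intron alone was covered by 59 of them, and 17 also touched a RYR2 exon. The densest stretch was a run of 21 adjacent fragments from 237514074 to 237586188, at 311 to 381 kb, of which 17 were called in all replicates. The scores rose to a first maximum in this run. The fragment from 237550855 to 237556452, which touches a RYR2 exon 349 kb from the promoter, scored 17.97, 20.93 and 14.56, a mean of 17.8 ± 3.19 (SD, n = 3). Its neighbour from 237539912 to 237550854, also over exon sequence, scored 16.09, 18.46 and 14.59, a mean of 16.4 ± 1.95, which lies within the spread of the first.

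The highest mean score among the contacts of the 10 genes belonged to a fragment farther into the gene. The RYR2 promoter was called with the intronic fragment from 237716556 to 237721963, 514 kb away, at 28.93, 24.47 and 26.01, a mean of 26.5 ± 2.27 (SD, n = 3), above every score of the 349 kb contact. In this pair the RYR2 promoter was listed second, whereas in all its other contacts it was listed first. The intronic fragment was itself listed as a promoter fragment. It holds the start of a small nucleolar RNA gene annotated as SNORA25 on the minus strand, one of many genomic copies with that name. In all 3 replicates it was also called with the promoters of MTR, HEATR1, LGALS8 and ACTN2, all upstream of RYR2. With the MTR promoter, 759 kb away, the scores were 17.04, 29.37 and 33.09, a mean of 26.5 ± 8.40, equal to that of RYR2 but more variable. With the promoter of ACTN2, the gene of the Z-disc protein alpha-actinin 2, the mean was 5.79 ± 0.672 at 872 kb.

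The sequence of the middle of that shared fragment is shown because it carried the highest mean score over the replicates. On the merged replicates it scored 25.36, below the 39.92 and 31.51 of a pair of PLN contacts, the 28.28 of a CASQ2 contact and the 28.24 of the RYR2 contact at 349 kb. The window is chr1:237719110-237719409 on the plus strand of GRCh37, and capitals mark matches on either strand to short motifs of cardiac transcription factors: CACTTNA for NKX2-5, AGATAA for GATA factors and, for MEF2, CTA and TAG with any 4 bases between them. It is followed by the 250 bases before the canonical RYR2 start, chr1:237205234-237205483 on the plus strand, where the capitals mark a match to CATTCC, a motif of TEAD factors.
RYR2 PIR at 514 kb: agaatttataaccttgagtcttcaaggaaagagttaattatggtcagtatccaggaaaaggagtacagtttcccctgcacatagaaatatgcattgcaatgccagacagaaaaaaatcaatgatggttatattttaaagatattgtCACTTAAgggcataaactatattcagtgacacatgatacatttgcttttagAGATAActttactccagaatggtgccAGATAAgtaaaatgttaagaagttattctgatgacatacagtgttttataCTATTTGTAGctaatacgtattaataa
RYR2 upstream of start: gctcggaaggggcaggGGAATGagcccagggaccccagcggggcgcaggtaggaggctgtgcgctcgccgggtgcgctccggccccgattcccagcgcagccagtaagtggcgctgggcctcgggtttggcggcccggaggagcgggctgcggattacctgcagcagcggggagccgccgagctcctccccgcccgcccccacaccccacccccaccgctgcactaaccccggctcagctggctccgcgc
The PIR window held 1 NKX2-5 match, 2 GATA matches and 1 MEF2 match. Matches to these motifs were found in 20.7%, 20.8% and 5.08% of the central windows of all PIRs of at least 300 bases, and CATTCC in 9.82% of the 250-base windows before the canonical starts of 19856 protein-coding genes.

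Upstream, RYR2 had 37 contacts, of which 20 lay in MTR, the gene of methionine synthase, and 8 in ACTN2. All 3 replicates called 6 of those in MTR and 3 of those in ACTN2. The strongest in ACTN2, a fragment over an exon from 236926000 to 236926961 and 278 kb away, scored 9.46, 8.86 and 6.80, a mean of 8.37 ± 1.40 (SD, n = 3). The MTR promoter fragment scored 9.96, 6.80 and 6.46, a mean of 7.74 ± 1.93, at 244 kb. Thus the upstream contacts in all replicates stayed below the 2 maxima inside RYR2. The farthest RYR2 contact, at 27342 kb in HSD11B1, was called in replicate 3 alone at 7.82.

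**Figure D3:**
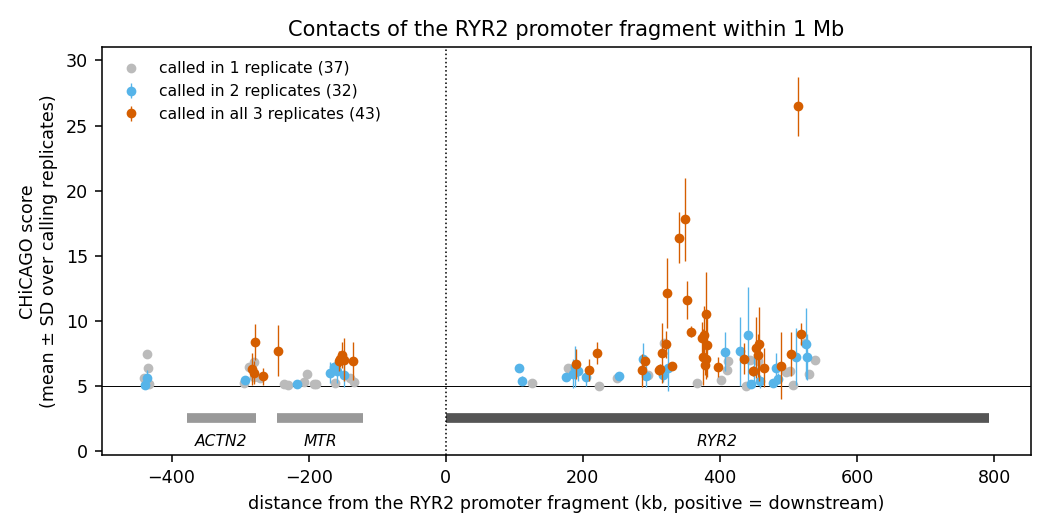
CHiCAGO score (vertical axis, mean over the replicates that called the contact, bars are SD where 2 or 3 did) of the RYR2 contacts within 1 Mb against their distance from the promoter fragment (horizontal axis, kb, positive is downstream). Colours give the number of calling replicates, grey bars the extents of ACTN2, MTR and RYR2, and the thin line the lowest listed score of 5. Scores peak at 349 kb and at 514 kb inside RYR2.

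CASQ2, the gene of the calcium-binding protein of the cardiac reticulum, lies on chromosome 1 from 116242642 to 116311505 on the minus strand, with its 2 annotated starts in the promoter fragment from 116305335 to 116314588. The fragment had 11, 10 and 14 contacts in replicates 1, 2 and 3, a mean of 11.7 ± 2.08 (SD, n = 3). In all, 9 of its 16 contacts (56.3%) were found in every replicate, a larger share than for the other 9 genes. Of these 9, 8 formed 1 unbroken run of adjacent HindIII fragments from 115673901 to 115686112, only 12.2 kb long and 624 to 635 kb downstream of the promoter. The run lies outside any protein-coding gene, beyond VANGL1 as seen from CASQ2. The fragment from 115682390 to 115684242 scored highest, at 18.03, 19.60 and 15.93, a mean of 17.9 ± 1.84, above the 10.32, 10.80 and 13.88 of its neighbour from 115684243 to 115685926. Just outside the run, 641 kb from the promoter, the fragment from 115667050 to 115669900 was called in replicate 3 alone at 9.25.

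The same 12.2 kb run was called less fully for 2 other promoter fragments. The VANGL1 promoter, the start of a planar cell polarity gene between CASQ2 and the run, was called with 4 of its fragments in 1 or 2 replicates each, at scores from 5.11 to 7.01. A promoter fragment with a SNORA42 annotation lies at 116152799 to 116164974. Its contact with 1 fragment of the run recurred in each replicate, at a mean of 7.02 ± 0.541 (SD, n = 3). It was also called with other fragments of the run in 1 replicate each, at 6.87, 6.89 and 7.07. CASQ2 was also called with both of these promoters directly. With VANGL1 at 125 kb the scores were 6.36, 7.18 and 8.02, a mean of 7.19 ± 0.830, and with the SNORA42 fragment they were 6.03 and 5.17 in replicates 1 and 3. The CASQ2 contacts upstream of the promoter, 5 in all and up to 108537 kb away, were each called in 1 replicate.

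The middle of the highest scoring CASQ2 fragment, chr1:115683167-115683466 on the plus strand, is shown with matches to the TEAD motif CATTCC and the NKX2-5 motif CACTTNA, on either strand, in capitals.
CASQ2 PIR at 627 kb: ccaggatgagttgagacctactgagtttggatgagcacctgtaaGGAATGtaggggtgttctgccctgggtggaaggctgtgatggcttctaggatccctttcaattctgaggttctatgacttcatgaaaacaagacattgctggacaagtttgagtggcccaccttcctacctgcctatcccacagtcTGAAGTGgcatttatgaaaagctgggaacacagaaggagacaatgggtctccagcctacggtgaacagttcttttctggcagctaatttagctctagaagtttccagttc
It held 1 match of each. CATTCC was found in 15.4% of the central windows of all PIRs.

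TRDN, whose product anchors calsequestrin to the release channel, lies on chromosome 6 from 123537484 to 123958334 on the minus strand. The promoter fragment from 123954701 to 123958642 holds 5 of its 7 starts. It had 2 contacts in replicate 1, none in replicate 2 and 3 in replicate 3, so that each of its 5 contacts was called once. Of these, 3 lay 1134 to 1214 kb upstream, in or just beyond the neuronal gene NKAIN2, at scores of 6.93, 5.18 and 5.10, and the promoter of NKAIN2 was called with the same 3 fragments in all 3 replicates. The 1 contact inside TRDN, 214 kb from the promoter, scored 5.01 in replicate 1.

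JPH2, the gene of the protein that bridges the surface and reticulum membranes, lies on chromosome 20 from 42735230 to 42815828 on the minus strand. Both its starts are in the promoter fragment from 42807686 to 42819770, 12085 bases long. The contacts numbered 3, 3 and 8, a mean of 4.67 ± 2.89 (SD, n = 3), so replicate 3 was high. Inside JPH2 lay 8 of the 13, only 14.4 to 76.8 kb from the promoter, the nearest contacts of any gene studied. They took 8 of the 19 other HindIII fragments of the gene, but the scores ran from 5.12 to 6.07, and 1 contact was called in 2 replicates, at 5.42 in replicate 1 and 5.95 in replicate 3. The highest score of JPH2, 9.13 at 3173 kb with the promoter fragment of ZMYND8, was seen in replicate 3 alone.

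PLN encodes the phosphorylation-controlled inhibitor of SERCA2. It lies on chromosome 6 from 118869459 to 118882879 on the plus strand, with 1 annotated start in the promoter fragment from 118869215 to 118875940. The fragment had 7, 8 and 10 contacts in the 3 replicates, a mean of 8.33 ± 1.53 (SD, n = 3). SLC35F1, a solute carrier gene upstream, held 11 of its 14 contacts, which took 11 of the 122 HindIII fragments of that gene. They centred on a run of 4 adjacent fragments from 118600760 to 118616899, 258 to 270 kb from the promoter, all called in all 3 replicates. The peak was a fragment of 482 bases in an SLC35F1 intron, from 118604537 to 118605018, which scored 21.68, 19.10 and 21.06, a mean of 20.6 ± 1.35, above all 3 scores (15.85, 14.34 and 18.64) of the adjoining fragment on its left. Toward the promoter, the next fragments of the run had lower mean scores of 13.3 ± 2.56 and 7.69 ± 2.13.

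The peak fragment of PLN was hardly shared. Its only other promoter was that of ASF1A and MCM9, called in replicate 1 alone at 5.21, and no other promoter was called with any of the other 13 PIRs of PLN. Over all promoter fragments, 65.5% of contacts were with a PIR called for another promoter too, against 7.14% for PLN. This share was also low for RYR2, at 16.8%, while it was 68.8% for CASQ2, 80% for TRDN and 81.8% and 77.8% for the CACNB2 fragments. The CACNB2 shares include 6 PIRs that its fragments share with each other. The share was 33.3% for CACNA1C, 42.9% for ATP2A2 and 53.8% for JPH2, and with 1 contact each it was 0% for SLC8A1 and 100% for SLN. A second, weaker group of PLN contacts lay 570 to 571 kb upstream, also in SLC35F1, where 2 adjacent fragments were called in replicate 3 at 5.75 and 5.12. The contacts downstream of PLN, at 33823 kb in SYNE1 and 38320 kb in ARID1B, were each called in 1 replicate, at 5.04 and 5.09.

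The middle of the PLN peak fragment, chr6:118604628-118604927, and the 250 bases before the PLN start, chr6:118869209-118869458, are shown on the plus strand. Capitals mark a HindIII site (AAGCTT) and a match to the GATA motif.
PLN PIR at 268 kb: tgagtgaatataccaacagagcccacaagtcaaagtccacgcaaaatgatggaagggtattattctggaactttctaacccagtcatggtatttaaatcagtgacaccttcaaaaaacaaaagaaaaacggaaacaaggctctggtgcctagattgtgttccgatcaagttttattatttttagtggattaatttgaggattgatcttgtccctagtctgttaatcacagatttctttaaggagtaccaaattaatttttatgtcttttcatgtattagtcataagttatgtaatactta
PLN upstream of start: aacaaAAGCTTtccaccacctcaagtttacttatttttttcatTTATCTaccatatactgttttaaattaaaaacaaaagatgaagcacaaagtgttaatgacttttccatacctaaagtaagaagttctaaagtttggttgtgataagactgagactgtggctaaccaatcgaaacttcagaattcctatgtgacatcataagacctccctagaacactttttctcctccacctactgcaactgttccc
No match to any of the 6 motifs searched was found in the PIR window. In the upstream window, the HindIII site begins at position 6 from the 5′ end, so the start of PLN lies 244 bases from the end of its promoter fragment. The fragment on the other side of that site was in no call of any replicate. The GATA match, which begins at position 44, is in a class held by 6.56% of the upstream windows of all protein-coding genes.

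ATP2A2, the gene of the SERCA2 pump, lies on chromosome 12 from 110718561 to 110788898 on the plus strand, and its promoter fragment spans 110716078 to 110719685. It had 5, 4 and 7 contacts, a mean of 5.33 ± 1.53 (SD, n = 3). All 7 lay upstream, 5 of them in IFT81, a gene of intraflagellar transport. The fragment with the IFT81 promoter, from 110561875 to 110565651 and 154 kb away, scored 12.76, 9.01 and 5.81, a mean of 9.19 ± 3.48. Its neighbour from 110558668 to 110561874 scored 7.00, 7.08 and 5.66, a mean of 6.58 ± 0.798, and the 2 sets of scores overlapped. A fragment of 436 bases in an IFT81 intron at 144 kb had a mean of 6.22 ± 0.954. The farthest contact, 284 kb away over an exon of GIT2, was called in replicates 2 and 3 at 5.54 and 6.52.

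SLN, whose product restrains the pump mainly in atrial and skeletal muscle, lies on chromosome 11 from 107578104 to 107590419 on the minus strand. Its promoter fragment, from 107588167 to 107592262, holds 2 of the 3 starts, and the canonical start is on a fragment in no call. It had 1 contact, 146 kb downstream between ALKBH8 and ELMOD1, at 5.14 in replicate 3. For the pump and its restrainers, contacts in all 3 replicates had mean scores up to 20.6 for PLN and up to 9.19 for ATP2A2, both from the fragment of the canonical start, and the calls hold no such fragment for SLN.

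**Figure D4:**
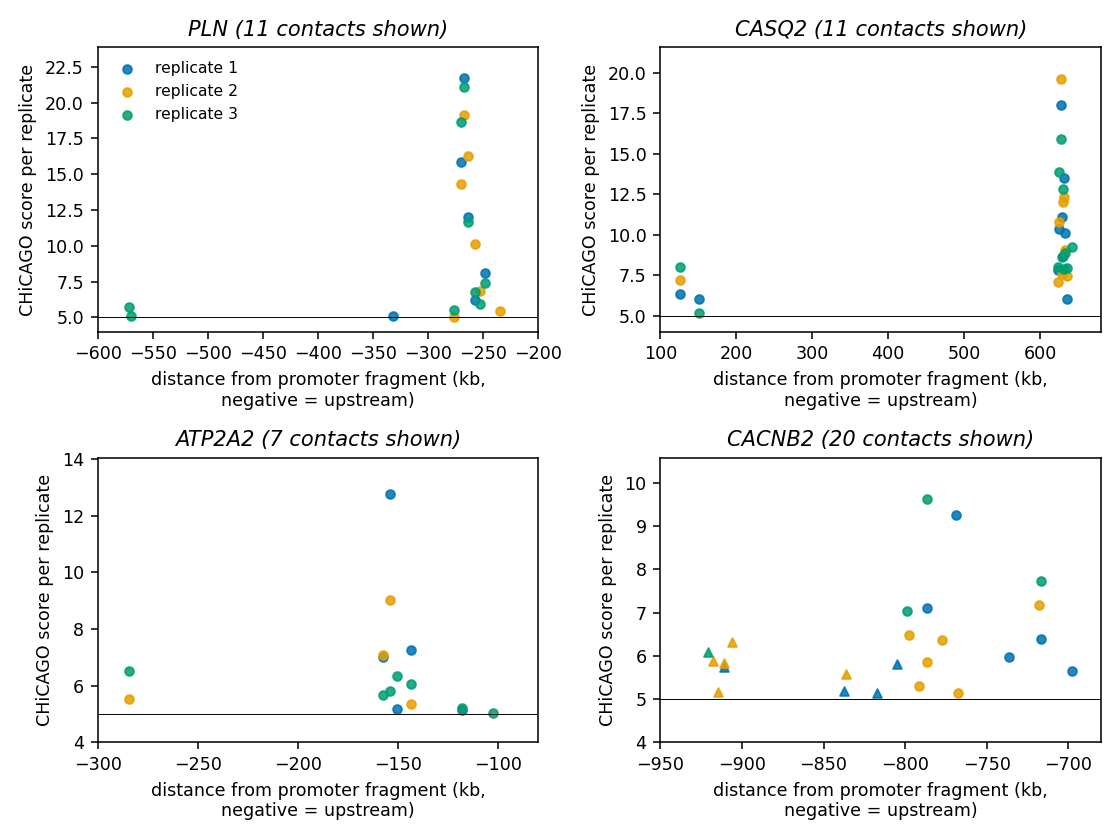
CHiCAGO scores in each replicate (vertical axes, coloured points) against distance from the promoter fragment (horizontal axes, kb, negative is upstream) for contacts of PLN, CASQ2, ATP2A2 and CACNB2 in the plotted ranges. Circles are the only or 5′ promoter fragment and triangles the internal CACNB2 fragment, and the thin line is the lowest listed score of 5. PLN and CASQ2 have narrow peaks with all 3 replicates near 268 kb and 627 kb, while the CACNB2 points spread between 698 and 921 kb, mostly 1 call per contact.

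CACNB2, the gene of a beta subunit that brings the L-type channel to the membrane, lies on chromosome 10 from 18429353 to 18832486 on the plus strand. It was the 1 gene with a pair of promoter fragments. The 5′ fragment, from 18426191 to 18436353, holds 9 of the 26 starts and had 5, 6 and 3 contacts, and the internal fragment, from 18548401 to 18552799, holds 6 and had 4, 5 and 1. All 20 contacts of both fell in a single interval of 120 kb, from 17627752 to 17747743 and 698 to 921 kb upstream. The interval holds HACD1, a fatty acid elongation gene expressed in muscle, and much of STAM, and 7 of the 8 HindIII fragments of HACD1 were called. Both promoter fragments shared 6 of these PIRs. The 1 contact in all 3 replicates joined the 5′ fragment to an exon of HACD1 from 17643547 to 17645513, 787 kb away, at 7.12, 5.86 and 9.62, a mean of 7.53 ± 1.91 (SD, n = 3). For the internal fragment the same PIR was called in replicate 2 alone at 6.32. Thus the position recurred between the promoters and the replicates, but the exact fragment mostly did not, with 17 of the 20 contacts called once.

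CACNA1C, the gene of the L-type channel pore, has 51 annotated transcript starts, and 50 of them, the canonical one included, are on fragments in no call. The fragment that met the rule, on chromosome 12 from 2713182 to 2717124, lies far inside the gene, holds the start of 1 transcript without a defined coding sequence and also that of CACNA1C-AS3. It had 0, 1 and 2 contacts, at 6.40, 5.65 and 5.48 and 651 to 791 kb upstream, 2 in CACNA2D4, which encodes an auxiliary calcium channel subunit, and 1 in DCP1B. SLC8A1, which encodes the exchanger that removes calcium from the cell, was similar. Of its 19 starts, 18, with the canonical one, lay on fragments in no call, and the fragment of the outermost start, on chromosome 2 from 40832886 to 40845589, had 1 contact, 1052 kb upstream between SLC8A1 and PKDCC, at 6.40 in replicate 2. For CACNA1C, SLC8A1 and SLN the calls thus hold no value for the canonical start. Whether those fragments were captured was not analysed here, so the low counts of these genes describe other starts.

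The promoters of the 10 genes were not called with each other. No contact joined a pair of them, and no PIR was shared by 2 of the genes, the 6 shared PIRs being those of the CACNB2 fragments. The genes lie on different chromosomes except for RYR2 with CASQ2, PLN with TRDN and ATP2A2 with CACNA1C, each pair more than 1 Mb apart, a range in which none of the contacts was called in all 3 replicates. Another promoter fragment was the partner in 13 of the 193 contacts (6.74%), against 17.5% of the contacts of all promoter fragments. The share was 12.5% without RYR2 and 3.95% on the merged calls. Of the 13, 4 were called in all 3 replicates, which are those of RYR2 with MTR and with the SNORA25 fragment, of CASQ2 with VANGL1 and of ATP2A2 with IFT81.

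Another 49 genes of calcium handling were set beside them, among them calmodulins, plasma membrane pumps, store-operated entry genes and other channel subunits. A promoter fragment with calls was found for 42 of them. A contact in all 3 replicates was found for 24 of the 42 (57.1%), against 5 of the 10 (50%) and 55.9% of all protein-coding genes with a promoter fragment. The median was 8 contacts per gene, against 10 for the 10 genes and 7 for all protein-coding genes. PPP1R3A, which targets a phosphatase to glycogen and the reticulum, had the most, with 66 contacts and 8 in all replicates. STIM1, the calcium sensor of the reticulum, followed with 36, of which 25 were in all replicates, at mean scores up to 33.4. At the other end, JPH3, a junctophilin of the brain, had 1 contact, which was called in all 3 replicates. None of the 49 reached the 113 contacts of RYR2.

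The sequences of the PIRs were searched for 6 motifs on both strands. The central 300 bases held the MEF2 motif in 13 of 181 PIRs (7.18%, against 5.08% of all PIRs). The core motif of the insulator protein CTCF, taken as CC, 3 free bases, AG, 2 free bases and GGC, was in 2 (1.1%, against 2.78%). GATA, TEAD and NKX2-5 motifs were found in 19.9%, 13.8% and 22.1%, against 20.8%, 15.4% and 20.7%. The SRF motif, taken as CC, 1 free base, TAT, 2 free bases and GG, was in 1 window (0.552%, against 1.30%). Adjacent PIRs of a promoter share their surroundings, so these shares describe the windows and were not tested.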

How the data were processed

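The authors mapped the promoter capture Hi-C reads of 3 replicates to hg19/GRCh37 with HiCUP and called contacts with CHiCAGO at default parameters (versions not given in the sources used here). The deposited files list, for each replicate and for the merged replicates, pairs of HindIII fragments with a CHiCAGO score of at least 5. Replicates 1, 2 and 3 list 112473, 109731 and 110740 pairs. Read counts and depth are unknown here, so no limit of detection is given.

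Of 127139 fragments, 127138 matched an in silico HindIII digest of GRCh37. Starts and genes came from GENCODE v44 lifted to GRCh37. A fragment pair with the same coordinates, in either order, was 1 contact, and the union of the 3 replicates was the main set, with the merged calls as an alternative. Distances are between midpoints. No test was made, since there was 1 condition. The genes and lists were chosen with earlier results of these data known. The contacts described are, per gene, the highest scoring and the farthest of those in all 3 replicates, those with promoters, and, chosen after their values were seen, single calls of genes with few contacts. Sequence was printed for genes with at least 3 contacts in all replicates, leaving out windows with over 30 bases of UTR, and that of ATP2A2 is not reported here. The functions were tested on simulated contacts with known answers. Python 3.11.15, numpy 2.4.6, scipy 1.17.1, pandas 2.3.3 and matplotlib 3.10.9 were used.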

Additional observations from a re-analysis of the deposited data

Results flagged for a closer look

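The calls on the merged replicates held 34 contacts of the 10 genes that no single replicate called, with scores from 5.02 to 7.74, out of 177. They were looked at because the merged calls lie outside the main set. Of the 34, 23 belonged to RYR2, 5 to TRDN, 4 to PLN and 2 to CASQ2. The 5 of TRDN all lay inside TRDN, 197 to 224 kb from its promoter, around the 1 contact that replicate 1 had called there at 214 kb and that scored 6.89 on the merged replicates. The 2 of CASQ2 adjoined its run of 8 fragments on either side, at 6.66 and 5.73. JPH2, SLC8A1, CACNA1C and the internal CACNB2 fragment had no contact in the merged calls. Merging did not raise all scores alike. Over the contacts in all 3 replicates, the merged score was a median of 1.81 times the mean of the replicates for PLN, 1.54 times for RYR2 and for CASQ2 and 0.998 times for ATP2A2, and for the RYR2 contact with the SNORA25 fragment, the lowest of RYR2, it was 0.958 times.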

How the results depend on the processing

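The number of distinct PIRs of the 10 genes, 187 in the union, was 77 at a score of at least 7, 22 at a score of at least 10, 69 when called fragments within 5 kb of each other were counted once, and 74 without RYR2, a setting chosen after seeing the data. It ranged from 157 to 163 with 1 replicate left out. The share called in all replicates, 31.1%, was 60.1% with fragments within 5 kb matched, 21.3% without RYR2, and from 42.0% to 49.4% with 1 replicate left out, where 2 replicates suffice. The merged calls give no such share. The median distance, 377 kb, was 290 kb on the merged calls and 638 kb without RYR2, and from 351 to 374 kb with 1 replicate left out. The share of contacts with another chromosome, 1.04%, was 0% at a score of at least 7, at least 10 and on the merged calls, 2.50% without RYR2, and from 0% to 1.23% with 1 replicate left out. The share with another promoter fragment, 6.74%, was 3.95% on the merged calls and 12.5% without RYR2. Changes were judged by 1.5 times for the count. For the share in all replicates the limit was the Wilson interval, 25.0 to 37.9%, which treats contacts as independent. For the other values the limit was the spread between replicates. Counting only pairs with the promoter listed first left out the RYR2 contact with the SNORA25 fragment. That setting, or only starts of protein-coding transcripts, moved none of these 5 values beyond its limit. The same held for contacts of at most 1 Mb, tried for the count and the shares in all replicates and with promoters, and for distances between nearest ends, tried for the median distance. Of 18 contacts in all replicates, the up to 5 highest scoring of each gene, 15 scored higher on the merged calls than their mean and 13 moved by more than 1 SD. Leaving out a replicate moved none by more than 1 SD, but the mean of the remaining scores cannot move that far, so this setting decides nothing. The ratio of motif matches in PIRs of the 10 genes to those in all PIRs stayed within counting error when whole fragments were searched in place of windows, but crossed 1 for SRF (0.426 to 1.27), GATA (0.956 to 1.11) and TEAD (0.90 to 1.01). No paired analysis was possible because there was a single group. Scores under 5 are not listed, which limits what a missing call can show.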
